A study of Homo sapiens with 24 samples.

Results

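The transcripts of 10 genes from histone methyltransferase families were examined for N6-methyladenosine (m6A) along human pancreatic differentiation. The genes were KMT2A, KMT2B, KMT2C, KMT2D, KMT2E, SETD1A, SETD1B, SETD2, NSD1 and NSD2. A peak belonged to them when the gene identifiers deposited with it included that of one of the 10 genes. This gave 675 of the 228472 peaks in 6 lists, and all 10 genes carried peaks in each list. Across all genes, 7362 of the 25104 with a peak in any list had one in every list, or 29.3%.

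Most of these proteins write methyl marks on histone H3. KMT2A and KMT2B, KMT2C and KMT2D, and SETD1A and SETD1B are the catalytic subunits of the COMPASS complexes, which share a core of WDR5, RBBP5, ASH2L and DPY30 and methylate H3K4 at promoters and enhancers. KMT2E is related to them by sequence and reads H3K4 methylation through its PHD finger. SETD2 trimethylates H3K36 in the bodies of transcribed genes, and NSD1 and NSD2 dimethylate H3K36. Their mRNAs are long, and most have at least 1 coding exon far longer than is usual in human genes, where m6A is known to be common.

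In GRCh38 and GENCODE 44 the genes lie, in the order above, as follows. The KMT2 genes are KMT2A (ENSG00000118058) at chr11:118436456-118526832, KMT2B (ENSG00000272333) at chr19:35717973-35738880, KMT2C (ENSG00000055609) at chr7:152134922-152436644, KMT2D (ENSG00000167548) at chr12:49018975-49060794 and KMT2E (ENSG00000005483) at chr7:104940943-105115019. The SET domain genes named SETD are SETD1A (ENSG00000099381) at chr16:30957294-30984664, SETD1B (ENSG00000139718) at chr12:121804009-121832656 and SETD2 (ENSG00000181555) at chr3:47016428-47164113. The NSD genes are NSD1 (ENSG00000165671) at chr5:177131830-177300213 and NSD2 (ENSG00000109685) at chr4:1871393-1982207. KMT2C, KMT2D and SETD2 are on the minus strand and the others on the plus strand. Their MANE Select isoforms, the reference isoform of each gene, run from 5991 nt in SETD1A to 20635 nt in KMT2D.

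m6A-seq pulls down RNA fragments with an antibody against m6A (IP) and sequences them beside the fragments before precipitation (input), and a methylated stretch shows as a peak of IP over input. All cells came from the established human embryonic stem cell line MEL1, in its INS GFP/W form, which carries a GFP reporter at the insulin locus. The first batch followed the undifferentiated cells (hPSC) through definitive endoderm (DE) and the pancreatic progenitor stage (PP) to islet-like organoids (hILO), with mRNA and a SYSY antibody. The second batch held progenitors of the unedited line (WT PP) and of a line in which CRISPR-Cpf1 had cut the first exon of the m6A demethylase gene ALKBH5 (A5-KO PP), with total RNA, a Millipore antibody, rRNA-depleted input and another library kit. The A5-KO cells are a single edited line, so the edit and other properties of that line cannot be told apart. Of the 24 libraries, 2 IP and 2 input belonged to each population, and 1 list of peaks had been called on the 4 together. No comparison below therefore has a replicate check, and intervals cover counting error only. Where 6 values are listed below without names, they stand for hPSC, DE, PP, hILO, WT PP and A5-KO PP, in that order. The labels were checked by marker genes, which matched them in part. POU5F1 and NANOG had peaks in hPSC and DE and in no later list. The hormone genes INS, GCG and SST each had peaks in the hILO list alone, EOMES had 4 peaks in DE and none elsewhere, and PDX1 had 4, 2, 2 and 4 peaks in PP, hILO, WT PP and A5-KO PP and none in hPSC or DE. Other markers were less specific. The hPSC marker DPPA4 had 5, 3, 1, 0, 6 and 4 peaks, the DE marker SOX17 had 0, 3, 0, 0, 3 and 2, and the endocrine marker CHGA had 2, 1, 3, 1, 3 and 2, while SOX2 had none. Of the PP markers, ONECUT1 had 5, 0, 6, 4, 5 and 8 peaks, SOX9 had 2, 0, 2, 1, 2 and 3, and MNX1 had 0, 3, 4, 4, 4 and 5. ALKBH5 itself had 4 peaks in WT PP against 5 in A5-KO PP. The input reads deposited with these peaks summed to 289 in WT PP and to 1 in A5-KO PP, the direction of the label, with the limit on the read columns given next.

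The lists give each peak a position, a pooled IP and input read count, a log2 enrichment of IP over input and a p-value. The read columns fitted the positions poorly. Neighbouring peaks on the same gene, which share a transcript, had input reads per nt that correlated across peaks, on the log2 scale, with a Pearson's r of 0.36, 0.37, 0.25, 0.23, 0.29 and 0.38. Neighbours on different genes, which do not, had 0.18, 0.19, 0.18, 0.18, 0.25 and 0.35, so that the gap was small outside hPSC and DE. Mitochondrial transcripts are among the most abundant of a cell, yet of the 100 peaks with most input reads in a list, 0 to 2 were mitochondrial. The reads, enrichment and p-value of a row may therefore belong to another position, and the reason was not tested. Some relation to position remained. Between lists, input reads per nt of peaks at overlapping positions had a Spearman's rho from 0.23 (WT PP with PP) to 0.46 (DE with hPSC). The results below rest on positions, except where reads or enrichments are given as deposited and where enrichment chose between sites for the sequences shown. Between 50 peak numbers, in hPSC, and 4550, in WT PP, are absent from the lists, and if those peaks were removed by their read columns, the presence of a position is touched as well.

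To show what the peaks cover, overlapping peaks of the 6 lists were joined into sites, and for each gene the site found in the most lists was taken, with the highest median log2 enrichment deciding between equals. That column made the choice in the 7 genes with more than 1 site in all 6 lists, which are all but KMT2B, SETD1A and NSD2. All 10 of these sites lay in coding sequence. The stretches below run 5′ to 3′ on the transcript strand in GRCh38 and are centred on the GGAC nearest the middle of the site. GGAC is the most frequent core of the m6A consensus, its A is the base that can be methylated, and it is in capitals. In 7 genes that GGAC lay under a peak in every list.
KMT2A, exon 3, chr11:118473956-118474016, plus strand: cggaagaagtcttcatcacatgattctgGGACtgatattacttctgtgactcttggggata
KMT2B, exon 3, chr19:35720268-35720328, plus strand: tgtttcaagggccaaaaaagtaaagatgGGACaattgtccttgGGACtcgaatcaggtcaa
KMT2D, exon 35, chr12:49038050-49038110, minus strand: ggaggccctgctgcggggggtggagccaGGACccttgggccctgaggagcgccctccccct
KMT2E, exon 17, chr7:105101943-105102003, plus strand: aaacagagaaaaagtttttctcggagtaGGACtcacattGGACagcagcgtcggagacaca
SETD1A, exon 7, chr16:30965084-30965144, plus strand: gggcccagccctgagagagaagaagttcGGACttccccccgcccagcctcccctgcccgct
NSD1, exon 2, chr5:177135579-177135639, plus strand: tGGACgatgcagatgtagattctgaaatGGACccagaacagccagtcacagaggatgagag
NSD2, exon 2, chr4:1901098-1901158, plus strand: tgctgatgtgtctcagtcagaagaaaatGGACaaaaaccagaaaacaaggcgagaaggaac

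In the other 3 genes the site was in all 6 lists, but the GGAC nearest its middle was not. In KMT2C it lay under a peak in WT PP and A5-KO PP, in SETD1B under one in both of these and hPSC, and in SETD2 under one in WT PP. These stretches show a GGAC of variable coverage beside the constant ones.
KMT2C, exon 43, chr7:152162810-152162870, minus strand: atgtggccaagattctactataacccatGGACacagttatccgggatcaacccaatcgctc
SETD1B, exon 12, chr12:121822622-121822682, plus strand: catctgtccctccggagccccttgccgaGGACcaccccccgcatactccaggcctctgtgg
SETD2, exon 3, chr3:47123276-47123336, minus strand: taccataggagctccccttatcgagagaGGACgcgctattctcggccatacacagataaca

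Both kinds of stretch hold the motif because they were centred on it. The KMT2B, KMT2E and NSD1 windows each held a second GGAC. The sites they come from held between 2 GGAC, in KMT2E and NSD2, and 11, in KMT2C and KMT2D.

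The median number of peaks per transcript was 10.5, 10, 10.5, 10, 10 and 11.5, against 2 in each list over all coding genes with a peak. KMT2A, the founding member of the family, had 21, 18, 22, 18, 16 and 18 peaks. KMT2D had 22, 18, 20, 14, 17 and 21 in the same order, and its paralogue KMT2C had 18, 11, 15, 15, 16 and 17. These are the longest transcripts of the group. SETD2 had 11, 11, 12, 10, 14 and 15 peaks, so that its highest numbers were in the second batch. NSD1 had 8, 12, 12, 11, 10 and 9 peaks, and KMT2E had 7, 8, 9, 9, 10 and 9. KMT2B had the fewest over all lists, with 6, 2, 6, 4, 4 and 5, and its 2 peaks in DE equal the median of all genes. SETD1A had 8, 6, 6, 8, 5 and 4. SETD1B had 10, 9, 7, 5, 9 and 12, and NSD2 had 12, 8, 4, 10, 10 and 11. The lists PP and WT PP, both of progenitors, differed by 6 peaks on KMT2A, with more in PP, and by 6 on NSD2, with more in WT PP.

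**Figure D1:**
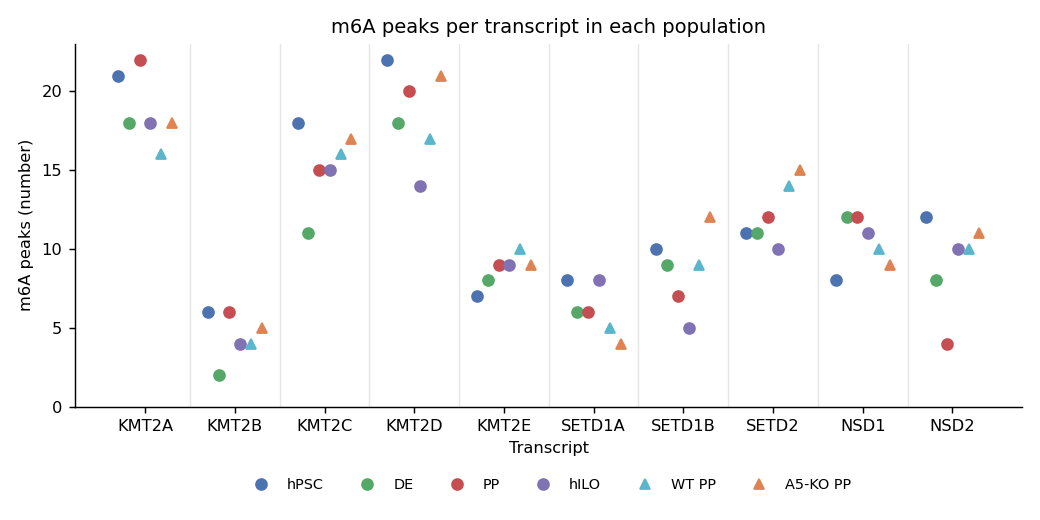
Number of m6A peaks (vertical axis) on each of the 10 transcripts (horizontal axis) in each population. Circles are the first batch and triangles the second, and each point is 1 list. KMT2A and KMT2D lie between 14 and 22, KMT2B lies between 2 and 6, and NSD2 has 4 in PP.

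Numbers per length were compared next. Per kb of the longest coding isoform the median of the 10 genes was 1.12, 0.93, 0.93, 0.98, 0.95 and 1.05 peaks. Over all coding genes with a peak the median was 0.63, 0.58, 0.56, 0.56, 0.68 and 0.67, and over those with an isoform of at least 6000 nt, a length that all 10 exceed, it was 0.41, 0.37, 0.37, 0.37, 0.48 and 0.50. SETD2 was densest of the 10 in DE, PP, WT PP and A5-KO PP, with 1.29, 1.40, 1.64 and 1.76 peaks per kb. KMT2B in DE was the sparsest, at 0.24. Genes with 10 or more peaks were rare, between 0.995% of coding genes with a peak in hILO and 3.14% in A5-KO PP, while 6, 5, 5, 6, 7 and 6 of the 10 had that many. By number of peaks KMT2D ranked 3 of 11212 coding genes in hPSC and KMT2A ranked 2 of 9600 in PP. At the other end KMT2B ranked 4202 of 10574 in DE and SETD1A ranked 2835 of 13090 in A5-KO PP. These genes were chosen with such results known, so the ranks are a description.

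The total over the 10 genes was 123, 103, 113, 104, 111 and 121 peaks. As a share of the list this was 0.336%, 0.315%, 0.389%, 0.330%, 0.256% and 0.219%. The 2 lists of the second batch were the longest, with 43312 and 55219 peaks, and the share was lowest there. The peaks of the 10 genes were wider in WT PP, with a median exonic length of 300 nt against 150 nt to 200 nt in the other 5 lists, so equal numbers do not mean equal coverage. Of the length of the longest isoforms the peaks covered 25.7%, 18.4%, 18.0%, 23.3%, 32.7% and 28.2%. At p below 1e-05, with p taken from the doubtful read columns, the totals were 91, 53, 78, 101, 65 and 75 peaks, and hILO then had the most.

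Most of the peaks lay in coding sequence. On the longest coding isoform, the midpoint was in the CDS for 548 of 634 placed peaks (86.4%, Wilson 95% interval 83.5% to 88.9%), in the 3′ UTR for 77 and in the 5′ UTR for 9. Over all genes the CDS held 54.2%. The CDS makes up 77.1% of the MANE Select isoforms of the 10 genes. On those isoforms 549 of 646 placed peaks (85.0%, 82.0% to 87.5%) were in the CDS. Within 200 nt of the stop codon, where m6A is known to be concentrated, lay 34 of 634 (5.36%, 3.86% to 7.40%), against 19.5% over all genes. Such a window is a small part of transcripts this long, and its share of their length was not computed. The stop codon itself lay under a peak in all 6 lists in KMT2E, SETD2 and NSD1 and in 5 lists in KMT2A and KMT2D. In KMT2B and SETD1A it lay under no peak. KMT2B and SETD1A had no peak in the 3′ UTR in any list.

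NSD2 was the exception. On its MANE isoform 22 of 41 placed peaks were in the 3′ UTR and 19 in the CDS. The choice of isoform mattered here more than in the other genes, since the longest isoform of NSD2 has a CDS of 1944 nt and the MANE isoform has 4098 nt of CDS. On the longest isoform 13 peaks were in the CDS and 11 in the 3′ UTR, and the rest of the 55 peaks of NSD2 could not be placed. The sites of the last MANE exon lie outside that isoform, so their peaks are absent from the counts and covered shares based on it. Its last exon, exon 22 of 3555 nt, held 5, 4, 0, 3, 5 and 6 peaks. The 3 sites of that exon that were found in hPSC, DE, hILO, WT PP and A5-KO PP were thus missing from the PP list alone. The other 3 lists of the first batch held these sites, as did WT PP, and the cause of the gap was not tested.

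Peaks were gathered in long exons. Exons of 1000 nt or more made up 56.3% of the length of the 10 MANE isoforms and held 461 of 646 peaks (71.4%, 67.8% to 74.7%), against 57.7% of peaks over all genes. Among CDS peaks in internal exons of the longest isoforms, 350 of 518 (67.6%, 63.4% to 71.5%) were in such an exon, against 21.5% over all genes. The share of internal coding length in such exons was not computed for either set, so this contrast is not corrected for exon structure. In KMT2B the 2 exons of this size are 39.1% of the transcript and held 23 of 26 peaks, or 88.5%. In KMT2C the 5 exons are 50.6% and held 88.0%, and in KMT2D the 8 exons are 69.5% and held 92.0%. The share of peaks was above the share of length in 9 of the 10 genes. KMT2E went the other way, with 41.1% of its length and 25.5% of its peaks in its last exon, its single exon of that size. Most peaks of KMT2E and SETD1A were in coding exons under 1000 nt.

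**Figure D2:**
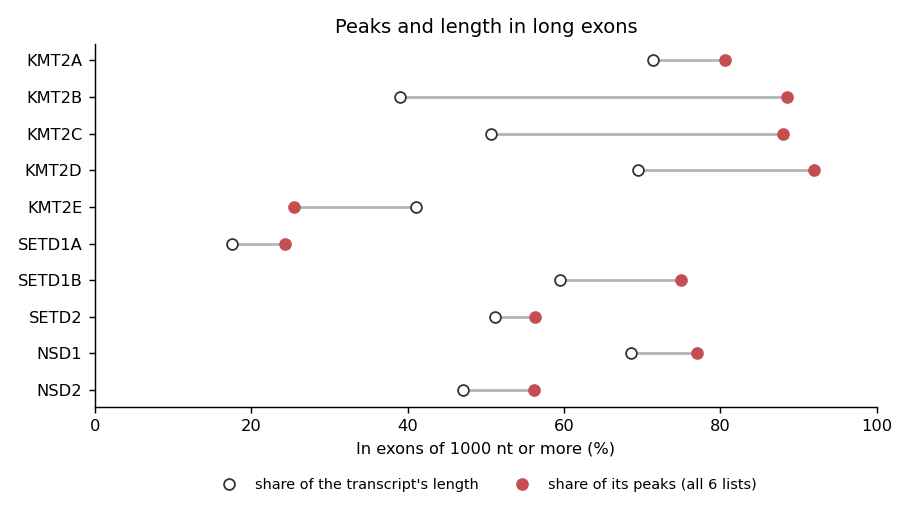
Share of the MANE isoform's length (open circles) and of its peaks in all 6 lists (filled circles) that lies in exons of 1000 nt or more, in percent, for each of the 10 transcripts. The filled circle is to the right of the open circle in all but KMT2E, and the gap is widest in KMT2B, from 39.1% to 88.5%.

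Single exons carried many peaks in every list. Exon 3 of SETD2 (chr3:47120182-47124548, 4367 nt, all coding) held 7, 5, 6, 6, 7 and 9 peaks. Exon 27 of KMT2A (chr11:118502398-118506646, 4249 nt) held 6, 7, 9, 4, 5 and 9, and its exon 3 of 2654 nt held 5, 4, 4, 4, 4 and 5. Exon 40 of KMT2D (chr12:49031175-49033964, 2790 nt) held 5, 5, 4, 3, 4 and 8. The numbers of exon 3 of KMT2A were nearly constant. Its sites of 700 nt and 525 nt were absent from DE, however, where its 4 peaks fell on another site. A5-KO PP had the highest number in the other 3 exons, shared in KMT2A with PP. Its peaks nevertheless covered less of the longest isoforms than WT PP peaks did. The shares were 47.0% against 59.1% in SETD2, 31.6% against 35.3% in KMT2A and 23.2% against 31.7% in KMT2D. Exon 5 of NSD1 (chr5:177209636-177212195, 2560 nt) held 4, 5, 5, 4, 6 and 4 peaks. Not every long exon was occupied throughout. Exon 12 of SETD1B (1260 nt) held 4, 3, 1, 0, 3 and 2 by midpoint, so none in hILO, and exon 32 of KMT2D (1812 nt) held 3, 0, 2, 1, 1 and 1, so none in DE.

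**Figure D3:**
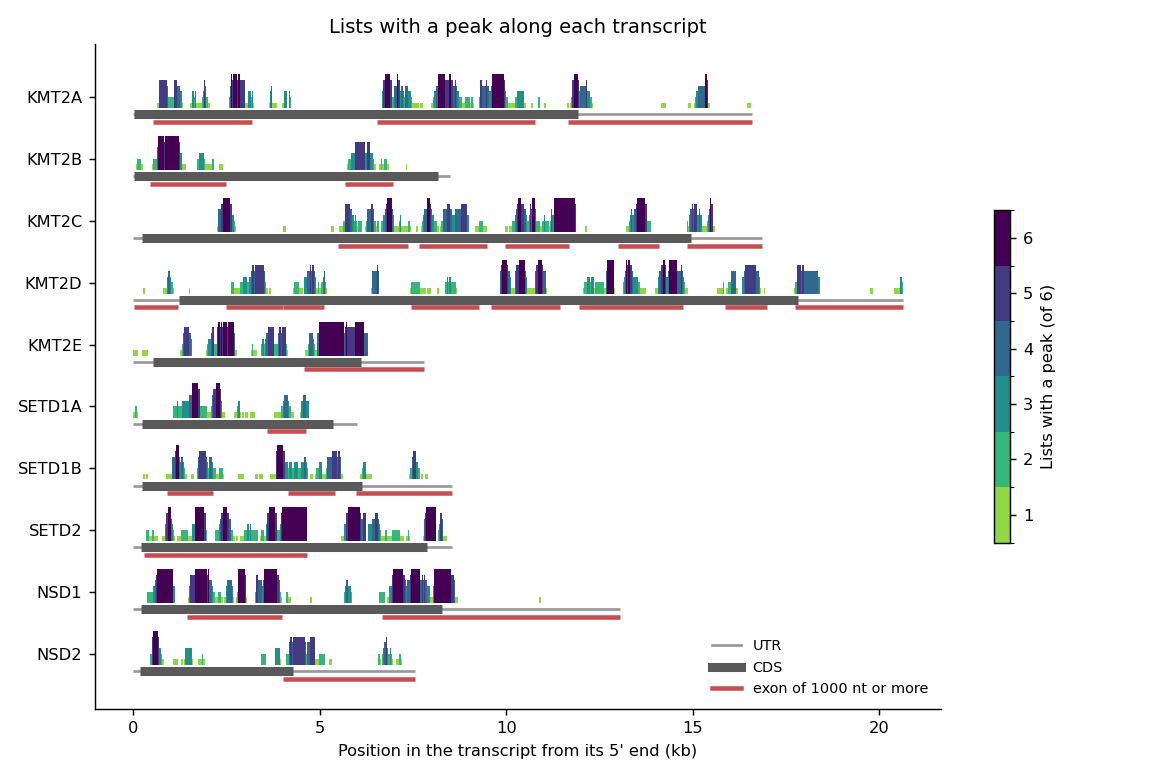
Number of lists with a peak (height and colour, 1 to 6) along the MANE isoform of each transcript, in kb from its 5′ end. The thick grey line is the CDS, the thin line the UTRs, and the red line marks exons of 1000 nt or more. Stretches in all 6 lists stand mostly over the red lines and inside the CDS, and 6 of the 61 placed peaks of NSD1 are in its long 3′ UTR.

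The 675 peaks joined into 151 sites with a median width of 200 nt. Of these, 41 (27.2%) were found in all 6 lists and 52 (34.4%) in a single list. Over all genes 9.35% of sites were in all 6 lists and 52.6% in 1. Most of those genes lacked a peak in some list, whereas all 10 genes had peaks in each. The constant sites were 7 each in SETD2 and KMT2C, 6 each in KMT2A and KMT2D, 5 in NSD1, 4 in SETD1B, 3 in KMT2E, and 1 each in KMT2B, SETD1A and NSD2. By their middle, 37 of the 41 were in the CDS and 4 in the 3′ UTR. Joining widens a site with each peak added, so coverage was also counted base by base. Of the 114053 nt of the 10 MANE isoforms, 52450 nt (46.0%) lay in a peak of at least 1 list and 9997 nt (8.77%) in a peak of all 6. The constant bases fell in 56 stretches of up to 675 nt. Of them 93.6% were coding and 76.5% lay in exons of 1000 nt or more. NSD1 had the most constant bases, 2300 nt, followed by SETD2 with 1847 nt, KMT2C with 1375 nt and KMT2E with 1275 nt. As a share of the bases under any peak this was 41.7% in NSD1, 30.3% in SETD2, 18.6% in KMT2C and 32.1% in KMT2E. NSD2 had 150 nt, or 5.13%, and SETD1B 250 nt, or 5.62%.

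Along the first batch, 50 of the 116 sites with a peak at any stage were in all 4 stages (43.1%), against 22.7% of such sites over all genes. Genes with no peak at some stage are part of that background, while all 10 genes had peaks at each stage. Of the other sites of the 10 genes, 11 were missing from DE alone of the stages (9.48%, against 2.5% over all genes) and 8 from PP alone (6.90%, against 5.20%). Sites of a single stage numbered 11 for PP, 10 for hPSC, 5 for hILO and 3 for DE. Their shares were 9.48%, 8.62%, 4.31% and 2.59%, against 8.34%, 14.6%, 13.2% and 9.04% over all genes. Most of the gaps in DE alone were on KMT2A, whose peaks all carry a further gene identifier. In its exon 3 were 2 of them, at sites of 700 nt and 525 nt that were present in hPSC, PP, hILO, WT PP and A5-KO PP. The others on KMT2A were short sites, of 75 nt, 74 nt, 3 nt and 79 nt. KMT2C had 2 of the gaps, in exon 36 and exon 38, and the rest were on KMT2B, KMT2D and SETD2. DE was the list with the fewest peaks on the 10 genes, and the cause of the gaps was not tested.

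To follow peaks between stages, a peak counted as found again when peaks of the stage before covered over 50% of its exonic nt. In DE, 80 of 103 peaks (77.7%, 68.7% to 84.6%) were found in hPSC, against 64.7% of all DE peaks. In PP, 63 of 113 (55.8%, 46.6% to 64.6%) were found in DE, against 56.9% of all PP peaks. In hILO, 57 of 104 (54.8%, 45.2% to 64.0%) were found in PP, against 45.5% of all hILO peaks. The share in PP did not differ from that of the whole list beyond its interval, whereas the share in DE lay above it, and in hILO the whole-list value was just inside the interval. Peaks of 1 gene are not independent, and the genes were chosen with earlier results known, so no test was made.

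The genes differed in this. All 8 NSD2 peaks of DE were found in hPSC, but 1 of its 4 peaks in PP was found in DE and 2 of its 10 peaks in hILO were found in PP. Of the SETD2 peaks of DE, PP and hILO, 9 of 11, 10 of 12 and 7 of 10 were found in the stage before. Of the NSD1 peaks it was 10 of 12, 8 of 12 and 8 of 11. Of the KMT2A peaks it was 13 of 18, 7 of 22 and 12 of 18, with the lowest share for PP. Counted from the earlier stage, the share of peaks of the 10 genes found at the next stage was 49.6% for hPSC, 57.3% for DE and 71.7% for PP, so the order of the steps turned. Base by base, 85.5% of the nt under DE peaks were under hPSC peaks, and 62.2% of the nt under hPSC peaks were under DE peaks. Of the nt under hILO peaks, 80.4% were under hPSC peaks and 59.4% under PP peaks, while PP peaks covered fewer nt in all, 20623 against 30455 in hPSC.

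**Figure D4:**
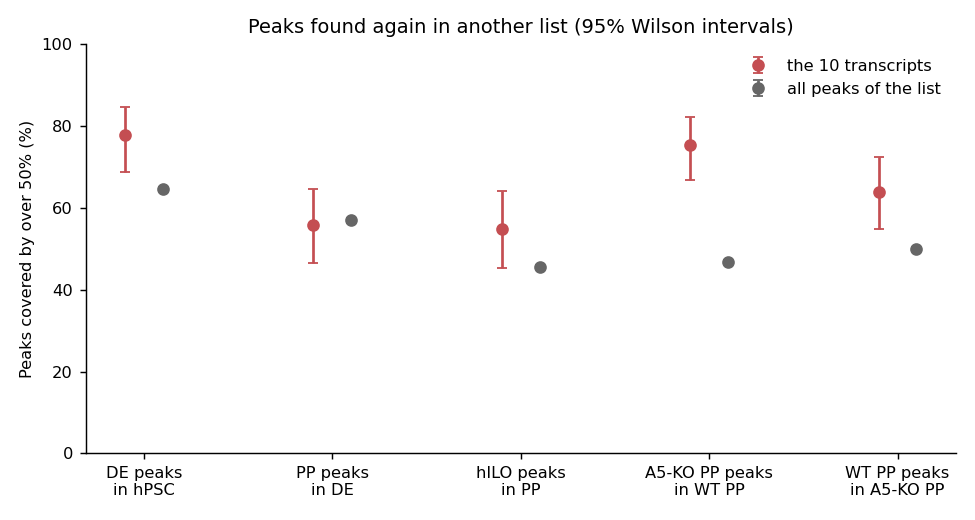
Share of peaks (percent) of which over 50% was covered by peaks of another list, for the 10 transcripts (red) and for all peaks of the list (grey). Bars are Wilson 95% intervals, which for the grey points are smaller than the symbol. The red point lies above the grey one in all comparisons but that of PP in DE, where it is 55.8% against 56.9%.

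Loss of ALKBH5 was examined in WT PP and A5-KO PP. Of the A5-KO PP peaks on the 10 genes, 91 of 121 (75.2%, 66.8% to 82.0%) were covered in WT PP, against 46.7% of all A5-KO PP peaks. Of the WT PP peaks, 71 of 111 (64.0%, 54.7% to 72.3%) were covered in A5-KO PP, against 49.9% of all WT PP peaks. By sites, 67 were in both lists, 25 in WT PP but not A5-KO PP and 15 in A5-KO PP but not WT PP. The sites in WT PP alone were 23.4% of these, against 24% over all genes, and those in A5-KO PP alone 14.0%, against 38.9%. SETD2 shared most, with 11 sites in both, 1 in WT PP alone and 1 in A5-KO PP alone. SETD1B shared 5, with 4 in WT PP alone and 3 in A5-KO PP alone. KMT2E shared 3, with 3 in WT PP alone and 2 in A5-KO PP alone. Base by base, 85.0% of the nt under A5-KO PP peaks were under WT PP peaks and 72.9% the other way round, and WT PP peaks covered more nt, 38610 against 33107.

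The deposited enrichments of the shared peaks were compared with the limit given above on the reads. Of 91 pairs, 29 had an enrichment 2-fold or more above WT PP in the knockout and 23 had one as far below it. Over all 25795 shared pairs 38.2% were higher and 28.8% lower, and on the 10 genes 29 and 23 of 91 are lower shares than these. By gene, NSD1 had 4 of 6 pairs higher and 1 lower, KMT2B had 3 of 3 higher, and KMT2C had 5 of 14 higher and 7 lower. Where each list gave 50 input reads or more, 49 pairs were left, 10 of them higher and 10 lower, against 22.9% and 21.3% over all genes. With 1 constant offset per list in place of the deposited enrichment, the balance of the 91 pairs turned to 13 higher and 29 lower, and over all genes to 7399 higher and 8771 lower. The 3 largest rises among these 49 were on NSD1, from 1.65 to 5.39 (log2 enrichment, peak at chr5:177211017-177211216), KMT2B, from 1.99 to 5.36, and SETD2, from 2.85 to 4.47. The 3 largest falls were on KMT2C, from 6.28 to 1.81, KMT2A, from 6.43 to 2.79, and NSD1, from 4.75 to 1.48. The rise and the fall on NSD1 were in the same exon. The KMT2B peak had 36408 input reads in WT PP against 63 in the knockout, and the NSD1 rise had 73 against 1100. Input reads thus differed widely at a single position between lists of the same cell type, and no direction is drawn from these pairs.

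The reads of the 10 genes had the same limit at each stage. The median log2 enrichment of their peaks was 1.62, 1.61, 1.57, 1.47, 3.64 and 3.64, against 1.74, 1.72, 1.64, 1.53, 3.65 and 4.31 over all peaks of each list. The lists were normalised separately, and the higher values of the second batch cannot be told apart from its other antibody and library kit. Input reads in the peaks of the 10 genes summed to 32412, 22957, 31760, 66112, 77922 and 47589. KMT2B alone held 14230 of these in hPSC, 14639 in PP and 37834 in WT PP. Of its reads, 14118 in PP and 36408 in WT PP were in 1 peak. A median peak of the 10 genes had 94, 85, 118, 340, 160 and 142 input reads, while 7 peaks had none in WT PP (6.31%, against 11.5% of the whole list), as had 12 in the knockout (9.92%, against 24.6%). Between stages, by the same limit of 50 input reads, the largest fall and rise in log2 enrichment were −1.42 and 0.96, both on SETD2, from hPSC to DE. From DE to PP they were −0.70 on KMT2D and 1.30 on NSD1, and from PP to hILO −1.33 and 1.23, both on NSD1. The 762 nt NSD1 site in exon 2, whose sequence is shown above, had a log2 enrichment of 2.29, 1.10, 2.40 and 1.07 at the 4 stages, so the value alternated while the position stayed.

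GGAC was denser in the peaks than in the rest of the exons in every list. In hPSC the peaks of the 10 genes held 5.59 GGAC per kb and the rest of their exons 2.67. Over the 6 lists the ratio was 2.09, 2.12, 1.77, 1.63, 2.05 and 1.87. Over all genes with a peak it was 1.61, 1.47, 1.44, 1.32, 1.46 and 1.29. On the opposite strand, which the antibody does not see, the ratio of the 10 genes was 1.14, 0.92, 0.96, 1.02, 0.99 and 1.00. The wider m6A consensus DRACH, with D for any base but C, R for a purine and H for any base but G, was less contrasted, with ratios between 1.28 in hILO and 1.36 in DE. In these ratios the rest was taken over the exons of all isoforms. On the longest coding isoform alone the GGAC ratio of the 10 genes was 1.76, 1.88, 1.59, 1.47, 1.70 and 1.59. Over all genes with a peak it was then 1.62, 1.53, 1.48, 1.40, 1.44 and 1.42, so the gap was smaller in every list.

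Of the 473 GGAC on the 10 MANE isoforms, 274 (57.9%) lay in a peak of at least 1 list, against 46.0% of the nt. KMT2E was the clearest case, with 26 of its 30 GGAC under a peak and a density of 6.55 per kb inside and 1.05 per kb outside. SETD1B had the densest transcript, 63 GGAC or 7.36 per kb, with 41 under a peak. SETD1A had the smallest contrast, 6.10 per kb inside and 4.68 outside. KMT2C and NSD1 had the lowest density over the whole isoform, 2.97 and 2.99 per kb, although KMT2C was among the genes with most peaks and NSD1 had the most constant bases. A match is a description of the letters, and which A was methylated was not measured.

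**Figure D5:**
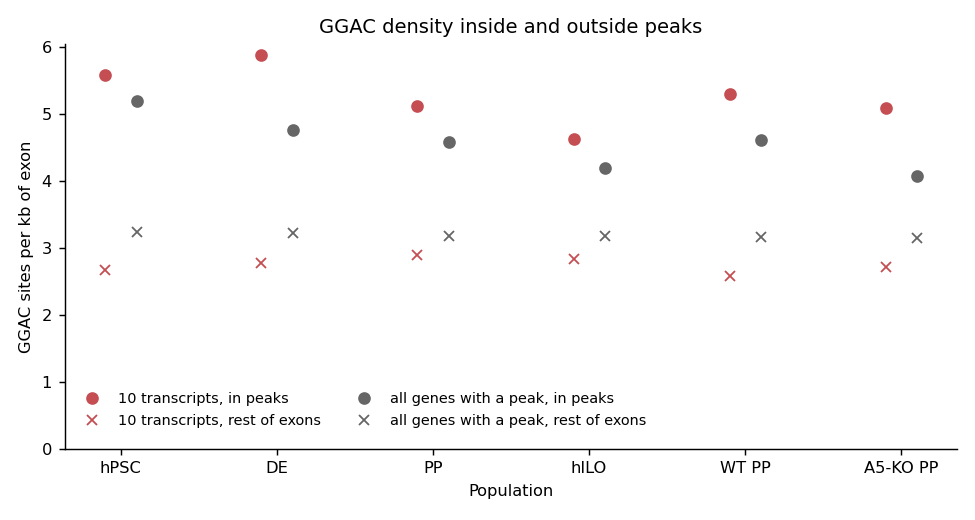
GGAC sites per kb of exon on the transcript strand (vertical axis) in each population, inside peaks (circles) and in the rest of the exons of the same genes (crosses), for the 10 transcripts (red) and all genes with a peak (grey). The red circles lie between 4.63 and 5.88 and the red crosses between 2.59 and 2.90.

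Partners of the 10 proteins also carried peaks. Of the 4 shared COMPASS subunits, all 4 had a peak in each list but WT PP, where WDR5 had none, with 5 to 8 peaks in all per list. Of the 11 subunits that belong to particular complexes, 8 had peaks in all 6 lists, with 49 to 59 peaks per list. BOD1L1, a SETD1A partner, had 16, 17, 13, 12, 11 and 11, NCOA6, a subunit of the KMT2C and KMT2D complexes, had 10, 8, 8, 12, 13 and 10, and KDM6A, the H3K27 demethylase in these complexes, had 4, 3, 4, 3, 5 and 4. MEN1, which tethers KMT2A and KMT2B, had 3, 2, 1, 0, 3 and 4. Among 11 other H3K4 or H3K36 methyltransferases, 6 had peaks in all 6 lists, led by ASH1L with 14, 7, 8, 9, 13 and 11 and NSD3 with 9, 8, 8, 7, 10 and 8. SMYD1 and PRDM9, which are restricted to muscle and germ cells, had 2 peaks each in A5-KO PP, with 0 input reads, and none elsewhere. Of 11 SET enzymes that act on other histone residues, 8 had peaks in all 6 lists, and EZH2 had 3 in all but WT PP, where it had 1. The highest number in any list on these genes was the 17 of BOD1L1 in DE.

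All 113 KMT2A peaks also carried the identifier of a readthrough gene, and 38 of them that of ATP5MG, which that gene joins to KMT2A, so reads of the 3 cannot be told apart there. The peaks of the other 9 genes carried no further identifier.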

How the data were processed

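m6A-seq had been done on 24 libraries, 2 IP and 2 input for each of 6 populations. The authors used fastp for trimming and HISAT2 for alignment to GRCh38, keeping 1 alignment a read, and ran exomePeak2 on the pooled libraries of each population. The authors deposited pooled counts of IP and input reads, a log2 enrichment corrected for GC content, the p-value of each peak and its adjusted form. Whether counts are sums or means is not given in the sources used here. The lists also hold peaks above the p-value threshold of 1e-05 named in the study's methods, and all were kept. The study's expression filter was not used.

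Peaks were reduced to the exons of their gene in GENCODE 44, and overlap was computed on these exons and by strand. Placement by midpoint, peaks per kb and the share of length covered per list used the longest coding isoform. Placement was repeated on the MANE Select isoform, which also served for sites, exons and coverage across lists. GGAC and DRACH were counted in the GRCh38 sequence within exons, and motifs across junctions were missed. The functions were tested on simulated data. Intervals are Wilson 95% intervals. No p-value was computed, because no list holds values per library. Log2 values computed from reads used a pseudocount of 1. Alternatives covered thresholds, overlap rules, isoforms and motifs.

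The 10 genes, the other gene lists and the rules were chosen with earlier results of these data known. The named sites were, per gene, that in the most lists with the highest median log2 enrichment. Named differences were the 3 largest rises and falls from WT PP to A5-KO PP and 2 each per stage step, of which the largest are given, where each list had 50 input reads or more. Other exons and sites were named after their values were seen. Python 3.11.15, pandas 2.3.3, numpy 2.4.6 and scipy 1.17.1 were used.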

Additional observations from a re-analysis of the deposited data

How the results depend on the processing

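No paired analysis was possible because each list pools the 2 libraries of a group and holds no value per library, and for the same reason leaving out each replicate was not run. Of 123 alternatives, 82 stayed within the limit of their result (1.5 times for a number, the Wilson interval for a share, 1 SD over peaks for a median, counting error for a density ratio). The cause of the changes was not tested, except that stricter thresholds and rules admit fewer peaks by construction. Thresholds on p, enrichment and input reads use the read columns, whose place beside the positions is in doubt.

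The number of peaks on the 10 genes fell to 53 (DE), 65 (WT PP) and 75 (A5-KO PP) at p below 1e-05, to 54 (hPSC), 29 (DE), 45 (PP), 52 (WT PP) and 40 (A5-KO PP) at p below 1e-10, and to 67 (hPSC), 52 (DE), 55 (PP) and 38 (hILO) at an IP/input of at least 3. The share found in the stage before was 67.3% for PP and 76.9% for hILO when 1 nt was enough, 47.6%, 41.6% and 42.3% for DE, PP and hILO with over 50% of both peaks, and 49.6% for DE and 71.7% for hILO when counted from the earlier stage, so that hILO and not DE then had the highest share. The CDS share rose to 91.7% in DE with any overlap and to 93.8% in A5-KO PP at 50 or more input reads. Of the pairs of A5-KO PP and WT PP, 10 were higher and 10 lower at 50 or more input reads, 15 and 13 at 10 or more, and 17 and 13 with reciprocal overlap, and with 1 constant offset per list 13 were higher and 29 lower, which turned the balance. The density ratio with DRACH was 1.32, 1.36, 1.33, 1.28, 1.31 and 1.33 over the 6 lists in the order used above. With GGAC on the opposite strand it was 1.14 in hPSC, 1.02 in hILO and 1.00 in A5-KO PP, and below 1 in DE (0.92), PP (0.96) and WT PP (0.99). On the longest isoform it was 1.70 in WT PP.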
